A study of Mus musculus with 16 samples.

Results

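Passage from G1 into S phase is set by a small group of kinases, the cyclins that activate them and the inhibitors that hold them back, and 10 genes of this machinery were examined in CD8+ T cells given prostaglandin E2 (PGE2), a lipid mediator that signals through cAMP. The 10 genes, *Ccnd2*, *Ccnd3*, *Cdk4*, *Cdk6*, *Ccne1*, *Ccne2*, *Cdkn1a*, *Cdkn1b*, *Cdkn2c* and *Cdkn2d*, were taken by symbol from a count table of 54532 genes. All 10 passed the filter on low counts in every comparison. RNA-seq was carried out on 16 samples. Naive CD8+ T cells from spleens of C57BL/6J mice had been activated repeatedly in culture for 4 days to give TCF1+CD8+ T cells, an in vitro model of stem-like T cells. They were kept for 1 h with 100 ng per ml PGE2 or without it, and then for 4 h with 85 U per ml IL-2. IL-2 was given either alone (called unstimulated) or together with 1 bead per cell coated with anti-CD3 and anti-CD28 (called stimulated). All 4 groups, unstimulated untreated, unstimulated with PGE2, stimulated untreated and stimulated with PGE2, had therefore received IL-2, and each held 4 replicates numbered 1 to 4. The labels do not say whether replicates came from separate mice or cultures, so p-values measure the spread between these samples, which may be technical. Samples held 22678254 to 42950763 counts.

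D-type cyclins (here *Ccnd2* and *Ccnd3*) are made in response to growth factors and antigen, bind the kinases CDK4 and CDK6 and start the phosphorylation of the RB protein, which frees E2F transcription factors. E-type cyclins (*Ccne1* and *Ccne2*) activate CDK2 and carry cells into S phase. Inhibitors of the INK4 family (*Cdkn2c*, which encodes p18, and *Cdkn2d*, which encodes p19) bind CDK4 and CDK6, whereas those of the Cip/Kip family (*Cdkn1a*, which encodes p21, and *Cdkn1b*, which encodes p27) bind cyclin-CDK complexes and block CDK2. p27 is a well-known marker of quiescent T cells, and IL-2 and antigen receptor signals lower it.

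In GRCm38 coordinates, the D-type cyclin genes are *Ccnd2* (ENSMUSG00000000184, chromosome 6, 127125162 to 127152193, minus strand) and *Ccnd3* (ENSMUSG00000034165, chromosome 17, 47505051 to 47599691, plus strand). Their kinases are *Cdk4* (ENSMUSG00000006728, chromosome 10, 127063534 to 127067920, plus strand) and *Cdk6* (ENSMUSG00000040274, chromosome 5, 3341485 to 3531008, plus strand), and the E-type cyclins *Ccne1* (ENSMUSG00000002068, chromosome 7, 38097984 to 38107534, minus strand) and *Ccne2* (ENSMUSG00000028212, chromosome 4, 11191351 to 11204779, plus strand). The Cip/Kip inhibitors are *Cdkn1a* (ENSMUSG00000023067, chromosome 17, 29090976 to 29100727, plus strand) and *Cdkn1b* (ENSMUSG00000003031, chromosome 6, 134920401 to 134925513, plus strand), and the INK4 inhibitors *Cdkn2c* (ENSMUSG00000028551, chromosome 4, 109660876 to 109667189, minus strand) and *Cdkn2d* (ENSMUSG00000096472, chromosome 9, 21288410 to 21291407, minus strand). Each is a protein-coding gene. *Ccne2* shares 17.4% of its exon bases with *Ints8* on the other strand, and *Ints8* had a mean of 51.0 CPM (the count scaled to the size of its library) against 34.0 for *Ccne2*, so that the values of *Ccne2* are uncertain where counting did not use strand, which is not stated. *Cdk4* shares 19.7% with *Tspan31* (33.4 CPM against 279 for *Cdk4*) and *Ccnd3* 4.11% with *Bysl* (74.9 CPM against 177 for *Ccnd3*). The genes that overlap *Ccnd2*, *Cdk6* and *Cdkn1a* had at most 0.718 CPM, and *Ccne1*, *Cdkn1b*, *Cdkn2c* and *Cdkn2d* overlap none.

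Promoters (250 bases before to 50 after a RefSeq start, GRCm38.p6) were at hand for 8 of the 10 genes, 11 promoters in all, but not for *Ccnd2* and *Ccne2*. The RefSeq start of *Cdk6* lies downstream of the first base annotated for the gene. The promoters of the kinase genes *Cdk4* and *Cdk6*, and of *Cdkn1b*, the one of the 10 genes that PGE2 changed by over 2-fold, in stimulated cells only, are shown 5′ to 3′. The other promoters are not shown. Capitals mark the letters CACGTG, the E-box bound by MYC and related factors, and TGACG, the first letters of the cAMP response element TGACGTCA, both on either strand (on the other strand the letters read as their reverse complement).
*Cdk4* promoter, chr10:127063285-127063584, plus strand: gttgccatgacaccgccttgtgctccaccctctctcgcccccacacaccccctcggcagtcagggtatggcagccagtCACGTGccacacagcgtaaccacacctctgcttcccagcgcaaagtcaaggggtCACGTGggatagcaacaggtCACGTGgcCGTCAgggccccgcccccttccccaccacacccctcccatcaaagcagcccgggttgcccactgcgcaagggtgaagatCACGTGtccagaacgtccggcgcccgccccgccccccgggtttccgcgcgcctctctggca
*Cdk6* promoter, chr5:3343643-3343942, plus strand: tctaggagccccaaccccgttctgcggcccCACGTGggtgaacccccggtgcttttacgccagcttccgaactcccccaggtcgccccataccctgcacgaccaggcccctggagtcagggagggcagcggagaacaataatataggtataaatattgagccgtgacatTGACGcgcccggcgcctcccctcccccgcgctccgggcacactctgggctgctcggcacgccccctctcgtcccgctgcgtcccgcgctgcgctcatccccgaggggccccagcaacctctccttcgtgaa
*Cdkn1b* promoter, chr6:134920151-134920450, plus strand: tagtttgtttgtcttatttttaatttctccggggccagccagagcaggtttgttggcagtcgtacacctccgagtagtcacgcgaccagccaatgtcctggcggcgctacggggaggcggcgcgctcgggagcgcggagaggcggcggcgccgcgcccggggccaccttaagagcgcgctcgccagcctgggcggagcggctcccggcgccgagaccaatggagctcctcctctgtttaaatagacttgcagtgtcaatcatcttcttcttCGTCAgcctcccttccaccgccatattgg

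The *Cdk4* promoter held 4 copies of CACGTG, beginning 172, 118, 98 and 11 bases before the start, and the *Cdk6* promoter held 1 copy. Of 32851 mouse promoters searched on both strands, 7.15% held at least 1 copy and 8 (0.0244%) at least 4. Of the 11 promoters searched, the second *Cdkn2c* promoter was the other one with the letters. TGACG occurred in the *Cdk4*, *Cdk6* and *Cdkn1b* promoters and in both *Ccnd3* promoters, against 20.8% of all promoters, and the whole element TGACGTCA, which contains TGACG, in none (1.79% of all). TGANTCA (AP-1, 7.81% of all promoters), TTCNNNGAA (STAT5, 8.3%), TTTCCCGC (E2F, 1.07%) and TTTGGCGC (E2F, 0.514%) were in none of the 11, and GTAAACA (forkhead factors, 3.65%) was in the first *Ccnd3* promoter. These matches describe letters within these windows only.

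Per length, as FPKM (the count scaled to gene length and library size), unstimulated untreated cells held most of *Cdkn1b* (78.9 ± 8.24 FPKM, SD, n = 4) and *Cdk4* (76.2 ± 1.87), which overlapped in range. *Cdkn2d* followed at 61.8 ± 6.36 FPKM, below both. *Cdkn2c* (29.9 ± 3.69), *Ccnd2* (28.8 ± 2.67), *Cdkn1a* (26.6 ± 10.4), *Ccnd3* (24.4 ± 1.06) and *Ccne1* (21.9 ± 1.20) came next, each overlapping its neighbour in this order. *Cdk6* at 14.9 ± 1.27 and *Ccne2* at 11.7 ± 1.03 FPKM were the lowest of the 10. Without beads the 2 most abundant of the 10 transcripts thus encoded an inhibitor, p27, and a kinase, CDK4. In stimulated untreated cells the order was led by *Cdk4* (111 ± 7.09 FPKM), *Ccnd2* (107 ± 21.2) and *Cdkn1a* (70.0 ± 16.7), where *Cdk4* overlapped *Ccnd2* and *Ccnd2* overlapped *Cdkn1a*, while *Cdkn1b* stood at rank 8 with 13.1 ± 3.64 FPKM. With PGE2 and beads the same 3 genes led, at 89.6 ± 5.90, 77.3 ± 21.9 and 64.6 ± 14.3 FPKM, and *Cdkn2d* (29.1 ± 9.55) and *Cdkn1b* (27.5 ± 9.14) stood at ranks 4 and 5 with overlapping ranges. With PGE2 and no beads, *Cdkn1b* (99.8 ± 15.4 FPKM) and *Cdkn2d* (72.5 ± 1.75) both lay above *Cdk4* (54.7 ± 2.51) without overlap.

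**Figure D1:**
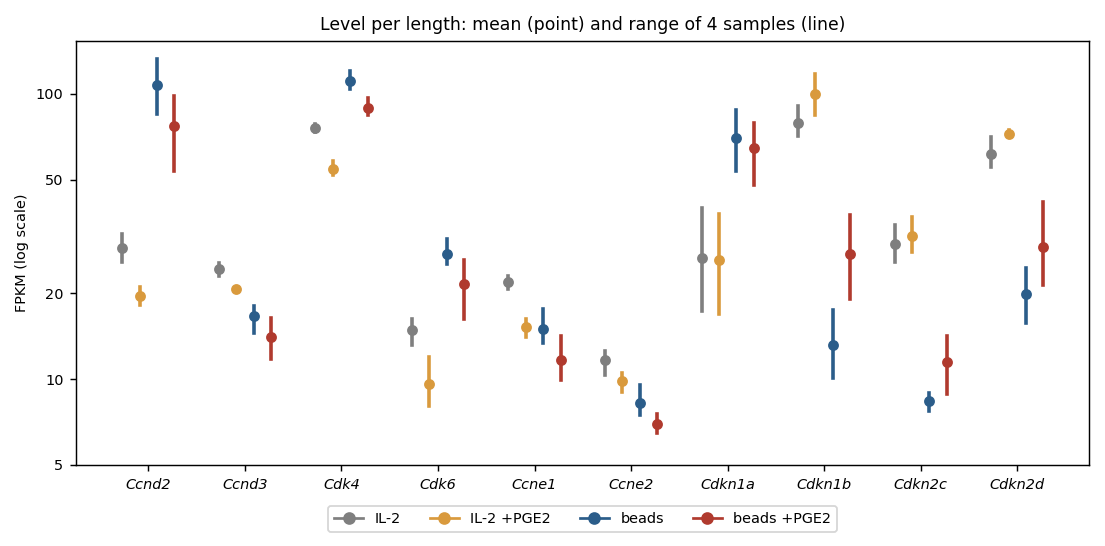
Level per length of the 10 genes, as deposited FPKM on a log axis, in 4 groups; points are means and lines the range of 4 samples. *Ccnd2*, *Cdk4*, *Cdk6* and *Cdkn1a* stood higher with beads, and *Cdkn1b*, *Cdkn2c* and *Cdkn2d* stood lower.

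Stimulation without PGE2 asked how the beads, with anti-CD3 and anti-CD28 together, changed these genes in cells that also had IL-2. *Ccnd2* (3.70-fold higher) and *Cdkn1a* (2.59-fold higher) rose, and *Cdkn1b* (6.06-fold lower), *Cdkn2c* (3.60-fold lower) and *Cdkn2d* (3.14-fold lower) fell, as differentially expressed genes (DEGs, adjusted p under 0.05 and at least 2-fold). Both kinases rose and *Ccnd3* and both E-type cyclins fell by less than 2-fold. So 10 of 10 genes changed by adjusted p (edgeR quasi-likelihood test, n = 4 against 4), against 66.5% of the 14205 genes tested. Of these, 4 rose (31.7% of all) and 6 fell (34.8%). The 5 of 10 that were DEGs compare with 23.2% of all, 2 of them upward (11.5%) and 3 downward (11.7%). Over all genes 1640 DEGs were higher and 1661 lower, or 1422 and 2005 with upper-quartile factors and 1734 and 1555 with RLE size factors. The ranges of the groups did not overlap for 10 of 10 genes (61.6% of all), 4 higher (30.4%) and 6 lower (31.2%). The median log2 fold change of the 10 genes was -0.54 and that of all genes -0.031.

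Among the D-type cyclins, *Ccnd2*, the one T cells induce on activation, gave 278, 286, 256 and 319.7 CPM in unstimulated untreated replicates 1 to 4 and 1276, 1146, 957 and 862 CPM in stimulated ones. The lowest stimulated sample lay far above the highest unstimulated one (log2 fold change 1.89, SE 0.13, adjusted p = 9.02e-08). *Ccnd3*, a D-type cyclin already present in resting lymphocytes, gave 228, 234, 225 and 213 CPM without beads and 130.4, 150.1, 167 and 169.5 CPM with them. All 4 stimulated samples were lower (log2 fold change -0.56, SE 0.081, adjusted p = 4.72e-05). The share of *Ccnd2* in the summed FPKM of both cyclins was 54.1% ± 2.96 (SD, n = 4) without beads and 86.2% ± 3.39 with them, and the ranges did not overlap.

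*Cdk4*, the more abundant catalytic partner of these cyclins, gave 260.3, 266, 253 and 262 CPM without beads and 401, 381, 370.1 and 363 CPM with them. The 4 samples within each group lay close together and all stimulated samples were higher (log2 fold change 0.53, SE 0.067, adjusted p = 1.74e-05). *Cdk6*, its paralog, gave 218, 224, 195 and 239 CPM without and 447, 415, 377 and 382 CPM with beads, again with all stimulated samples higher (log2 fold change 0.87, SE 0.087, adjusted p = 1.94e-06). Of the summed FPKM of both kinases, *Cdk6* took 16.3% ± 0.936 without beads and 19.9% ± 0.640 with them. The E-type cyclins moved the other way within these 4 h. *Ccne1* gave 57.9, 64.1, 58.9 and 64.3 CPM without beads and 38.7, 37.2, 41.8 and 50.4 CPM with them (log2 fold change -0.56, SE 0.089, adjusted p = 1.09e-04). *Ccne2* gave 45.9, 42.0, 38.3 and 46.1 CPM without and 29.5, 27.2, 28.7 and 35.9 CPM with beads (log2 fold change -0.52, SE 0.093, adjusted p = 2.70e-04). For both genes the highest stimulated sample stayed below the lowest unstimulated one, and the share of *Ccne1* in the pair was 65.2% ± 2.12 and 64.5% ± 1.01.

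**Figure D2:**
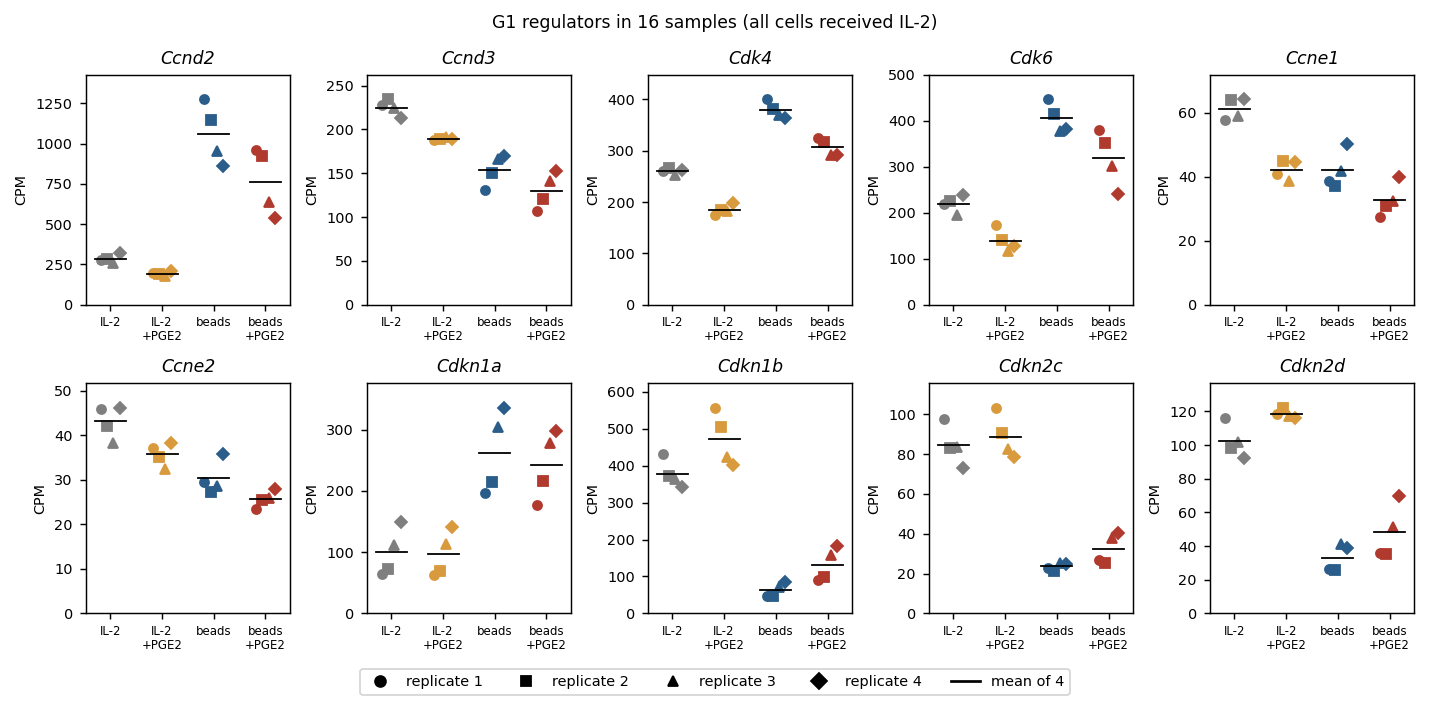
CPM of each gene (y axes, linear from 0) in the 16 samples, by group and replicate number (symbols), with the group mean as a line. *Cdkn1b* in stimulated cells lay at 47.5 to 85.5 CPM untreated and at 89.9 to 182 with PGE2, and *Cdkn1a* was higher in replicates 3 and 4 than in 1 and 2 in every group.

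The inhibitors split by gene. *Cdkn1b*, which encodes p27, gave 431, 373, 365 and 341 CPM without beads and 47.5, 47.8, 72.0 and 85.5 CPM with them. No stimulated sample came near an unstimulated one (log2 fold change -2.60, SE 0.17, adjusted p = 6.17e-08), and 236 of the 14205 genes tested had a larger absolute log2 fold change. *Cdkn1a*, which encodes p21, a target of p53 that T cells also induce on activation, gave 64.3, 72.9, 112 and 149.6 CPM without beads and 196, 214, 304 and 335 CPM with them. Stimulated samples were all higher (log2 fold change 1.37, SE 0.24, adjusted p = 2.78e-04), although the values of replicates 3 and 4 exceeded those of replicates 1 and 2 in each group. As a share of the summed FPKM of the Cip/Kip pair, *Cdkn1a* took 25.1% ± 8.86 without and 84.3% ± 0.737 with beads. The INK4 gene *Cdkn2c* gave 97.8, 83.1, 83.4 and 73.2 CPM without beads and 22.8, 21.6, 25.6 and 24.9 CPM with them (log2 fold change -1.85, SE 0.092, adjusted p = 1.56e-08). *Cdkn2d* gave 116, 98.5, 102 and 92.2 and 26.2, 25.9, 41.2 and 38.9 CPM (log2 fold change -1.65, SE 0.14, adjusted p = 5.32e-07). Neither INK4 gene had overlapping groups, and the share of *Cdkn2c* in their summed FPKM was 32.6% ± 0.615 and 30.1% ± 3.70.

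Stimulation in the presence of PGE2 was tested on the other 8 samples. The same 4 genes rose and the same 6 fell: 10 of 10 genes changed by adjusted p, against 64.2% of 14507 genes tested (32.5% upward and 31.7% downward). The DEGs numbered 6 of 10 (22.1% of all genes), namely *Ccnd2*, *Cdk6* and *Cdkn1a* upward (12.7% of all) and *Cdkn1b*, *Cdkn2c* and *Cdkn2d* downward (9.44%). Over all genes 1841 DEGs were higher and 1369 lower, or 1560 and 1758 with upper-quartile factors, which moved the median of all genes from 0.0022 to -0.13 on the log2 scale and kept the direction and call of all 10. *Ccnd2* was 4.04-fold higher (log2 fold change 2.02, SE 0.18, adjusted p = 4.66e-06) and *Cdk6* 2.32-fold higher (log2 fold change 1.21, SE 0.16, adjusted p = 5.47e-05). *Cdkn1b* was 3.55-fold lower (log2 fold change -1.83, SE 0.21, adjusted p = 2.24e-05). The log2 fold change was 1.33 for *Cdkn1a* (adjusted p = 9.11e-04), 0.75 for *Cdk4* (adjusted p = 1.07e-05), -1.43 for *Cdkn2c* (adjusted p = 1.21e-05) and -1.29 for *Cdkn2d* (adjusted p = 9.22e-05). It was -0.53 for *Ccnd3* (adjusted p = 6.10e-04), -0.36 for *Ccne1* (adjusted p = 0.0112) and -0.46 for *Ccne2* (adjusted p = 4.30e-04). Groups did not overlap for 9 of 10 genes (60.2% of all, 30.1% in either direction), the exception being *Ccne1*. The median log2 fold change was -0.41 over the 10 genes and 0.0022 over all.

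PGE2 in unstimulated cells asked what the lipid did to these genes under IL-2 alone. All 6 cyclin and kinase genes fell, by 1.17-fold to 1.56-fold, and the inhibitors *Cdkn1b* and *Cdkn2d* rose by 1.27-fold and 1.18-fold. Thus 8 of 10 genes changed by adjusted p against 28.4% of 14505 genes tested, 6 of them downward (15.5% of all) and 2 upward (12.9%). No gene was a DEG, against 3.38% of all: edgeR gave an unadjusted p under 0.05 to 8 of the 10, DESeq2 called 8 by adjusted p and limma 7, and both found 0 DEGs among them. The ranges of 5 genes, all lower with PGE2, did not overlap (28.9% of all genes, 16.8% lower). Medians were -0.24 for the 10 genes and -0.0010 for all on the log2 scale.

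*Cdk6* fell most: the 4 samples with PGE2 gave 174, 141, 116 and 127 CPM, each below the lowest untreated sample (log2 fold change -0.64, SE 0.10, adjusted p = 8.40e-04). *Cdk4* gave 175, 184, 182 and 198 CPM with PGE2 and was likewise lower in every sample (log2 fold change -0.47, SE 0.058, adjusted p = 1.43e-04). *Ccnd2* gave 195, 188, 177 and 207 CPM (log2 fold change -0.55, SE 0.074, adjusted p = 2.56e-04). Stimulation raised these 3 genes, and PGE2 without beads lowered them. *Ccnd3* with PGE2 gave 188, 189, 191 and 189 CPM, a narrow band below all untreated samples (log2 fold change -0.23, SE 0.053, adjusted p = 0.00794). *Ccne1* gave 41.0, 44.9, 38.7 and 44.5 CPM, also without overlap (log2 fold change -0.52, SE 0.068, adjusted p = 2.23e-04), and *Ccne2* 37.1, 35.1, 32.5 and 38.3 CPM, where the highest sample with PGE2 just passed the lowest untreated one (log2 fold change -0.25, SE 0.074, adjusted p = 0.0263).

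Of the inhibitors in unstimulated cells, 2 of 4 passed the test. *Cdkn1b* gave 556, 505, 424 and 402 CPM with PGE2. The groups overlapped, and the lowest PGE2 sample lay below the highest untreated one (log2 fold change 0.34, SE 0.10, adjusted p = 0.0245). *Cdkn2d* gave 118, 122, 117 and 116 CPM with PGE2, of which 1 sample fell just below the highest untreated one (log2 fold change 0.23, SE 0.068, adjusted p = 0.0241). *Cdkn2c* gave 103, 90.7, 82.5 and 78.5 CPM and did not pass the test (log2 fold change 0.092, SE 0.093, adjusted p = 0.513), but did with the replicate number as a block (log2 fold change 0.093, SE 0.037, adjusted p = 0.0497), a fit that called 9 of 10 genes against 47.8% of all, 6 lower (24.2%) and 3 higher (23.6%). *Cdkn1a* gave 62.2, 69.8, 113 and 141 CPM (log2 fold change -0.022, SE 0.30, adjusted p = 0.967, 95% interval -0.68 to 0.64), with the same split between replicates 3 and 4 and replicates 1 and 2. The block fit, which takes up this split, gave *Cdkn1a* a log2 fold change of -0.023 (SE 0.036, adjusted p = 0.647, 95% interval -0.10 to 0.055). Without the block, the call of *Cdkn1b* was lost when any of unstimulated untreated replicates 2, 3 and 4 or PGE2 replicates 1 and 2 was left out (adjusted p 0.0548 to 0.0760), that of *Cdkn2d* without untreated 2, 3 or 4 or PGE2 2 or 3 (0.0520 to 0.0693), that of *Ccne2* without untreated 1, 2 or 4 or PGE2 2 or 3 (0.0669 to 0.0942), and that of *Ccnd3* without untreated 2 (0.0545). In 1 fit of all 16 samples the adjusted p was 0.303 for *Cdkn1b*, 0.442 for *Cdkn2d* and 0.0723 for *Ccnd3*. With the replicate number as a block, these calls held. The adjusted p was then 4.29e-06 for *Cdkn1b*, 5.71e-04 for *Cdkn2d*, 3.22e-04 for *Ccne2* and 9.15e-05 for *Ccnd3*.

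**Figure D3:**
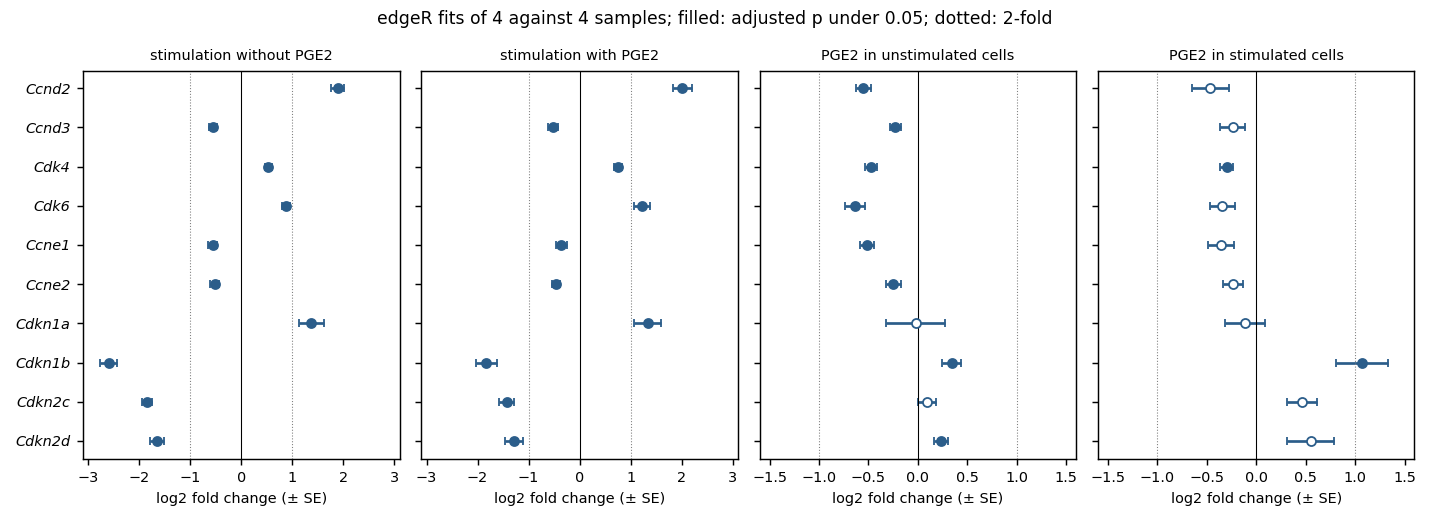
Fitted log2 fold change with its standard error for each gene in the 4 pairwise comparisons (the 2 PGE2 panels have a narrower axis). Filled points passed an adjusted p of 0.05 and dotted lines mark 2-fold: in stimulated cells only *Cdk4* and *Cdkn1b* are filled for PGE2, and *Cdkn1b* alone passes a line.

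PGE2 in stimulated cells addressed the same effect under IL-2 and the beads together. *Cdkn1b* was 2.10-fold higher with PGE2 and was the single DEG of the 10 genes, against 1.75% of 13922 genes tested (1.2% higher), and *Cdk4* was 1.23-fold lower. These 2 of 10 genes passed the adjusted p, against 9.84% of all genes (6.04% higher, 3.8% lower), and they were also the 2 of 10 whose groups did not overlap (17.9% of all, 9.58% higher and 8.32% lower). DESeq2 called 4 of 10, adding *Ccne1* (adjusted p = 0.0499) and *Cdkn2c* (adjusted p = 0.0411), as did 1 edgeR fit of all 16 samples (adjusted p = 0.0325 and 0.0369). With the replicate number as a block, 9 of 10 genes passed, against 39.8% of all genes, 6 downward (20.7% of all) and 3 upward (19.1%). Same-numbered samples deviated together in this comparison, so both fits are given. The median log2 fold change was -0.24 over the 10 genes and -0.0061 over all genes.

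The 4 stimulated samples with PGE2 gave 89.9, 98.1, 158 and 182 CPM of *Cdkn1b*. Each lay above the highest untreated stimulated sample and well below every unstimulated one (log2 fold change 1.07, SE 0.26, adjusted p = 0.0322). Within replicate numbers 1 to 4 the log2 ratio of PGE2 to untreated was 0.92, 1.04, 1.14 and 1.09, so that the ratio varied much less between numbers than the levels did (block: log2 fold change 1.05, SE 0.043, adjusted p = 1.45e-07). Without the block, the adjusted p was above 0.05 when any of stimulated untreated replicates 1, 2 and 3 or PGE2 replicates 3 and 4 was left out (0.0617 to 0.101). The fold change in those fits was 0.88 to 1.14 on the log2 scale, and 0.99 on log2(FPKM + 1), below 2-fold. The share of *Cdkn1a* in the summed FPKM of the Cip/Kip pair was 70.6% ± 2.69 with PGE2 and beads against 84.3% ± 0.737 with beads alone, and the ranges of 67.7 to 73.9% and 83.4 to 85.2% did not overlap. *Cdkn1a* itself gave 177, 216, 278 and 297 CPM, of which 1 lay below the untreated samples and the others among them. Its log2 fold change was -0.11 (SE 0.21, adjusted p = 0.754, 95% interval -0.57 to 0.35). With the block the adjusted p of *Cdkn1a* was 0.0932 and the 95% interval -0.20 to -0.0032.

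Both INK4 genes had higher values with PGE2 in each of the 4 numbers but overlapping groups. *Cdkn2c* gave 26.7, 25.1, 37.9 and 40.4 CPM (log2 fold change 0.46, SE 0.15, adjusted p = 0.0856; block: adjusted p = 0.00167). *Cdkn2d* gave 36.2, 35.5, 51.6 and 69.8 CPM (log2 fold change 0.55, SE 0.24, adjusted p = 0.168; block: adjusted p = 3.90e-04). The within-number log2 ratios were 0.22 to 0.70 for *Cdkn2c* and 0.32 to 0.84 for *Cdkn2d*.

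On the kinase side, *Cdk4* with PGE2 and beads gave 325, 317, 292 and 292 CPM, all below the untreated samples (log2 fold change -0.30, SE 0.064, adjusted p = 0.0194; block: adjusted p = 3.14e-04). Without the block this call was lost when stimulated untreated replicate 1 or 2 or PGE2 replicate 3 or 4 was left out (adjusted p 0.0502 to 0.0721). *Cdk6* gave 379, 352, 301 and 239.8 CPM, of which replicate 4 was the lowest (log2 fold change -0.34, SE 0.13, adjusted p = 0.123; block: adjusted p = 0.00235). *Ccnd2* gave 962, 923, 638 and 536 CPM, a wide spread (log2 fold change -0.46, SE 0.19, adjusted p = 0.152; block: adjusted p = 1.92e-04). The within-number log2 ratios lay between -0.34 and -0.27 for *Cdk4*, -0.67 and -0.24 for *Cdk6*, and -0.68 and -0.31 for *Ccnd2*, all below 0. *Ccnd3* gave 107, 120.5, 141 and 152 CPM (log2 fold change -0.24, adjusted p = 0.243; block: adjusted p = 0.00115). *Ccne1* gave 27.5, 30.8, 32.5 and 39.8 CPM (log2 fold change -0.36, adjusted p = 0.109; block: 3.86e-04) and *Ccne2* 23.4, 25.4, 25.9 and 28.0 CPM (log2 fold change -0.23, adjusted p = 0.169; block: 0.0126). These 3 cyclins had overlapping groups and lower values with PGE2 in every number. The share of all genes with ratios on the same side of 0 in every number was not counted.

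**Figure D4:**
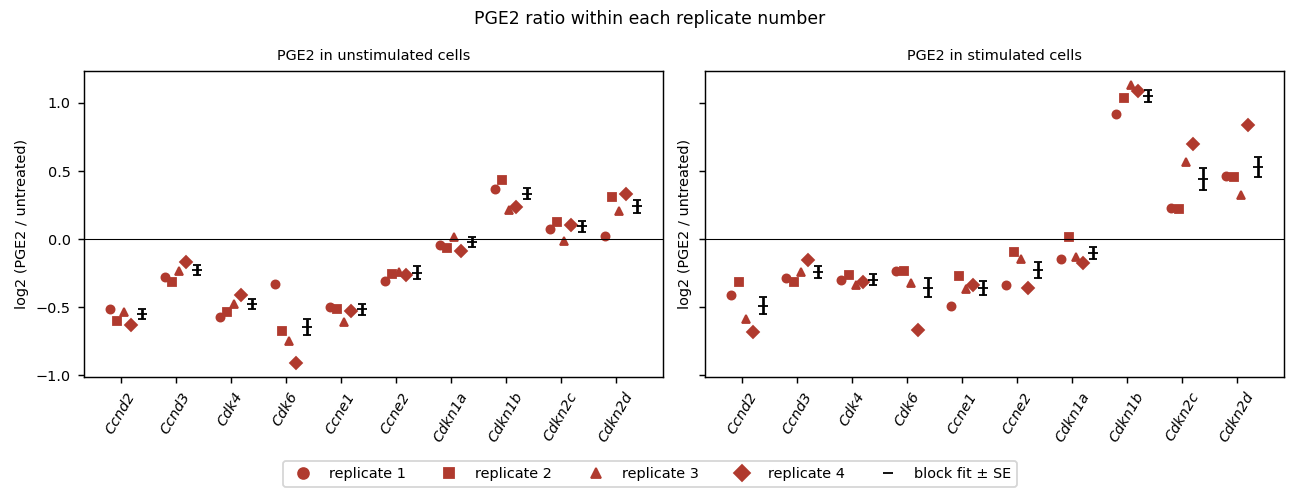
Log2 ratio of CPM with PGE2 to CPM without within each replicate number (symbols), beside the fit with the number as a block and its standard error (bars), for both PGE2 comparisons. In stimulated cells 9 genes had all 4 ratios on the same side of 0, with *Cdkn1b* at 0.92 to 1.14, and *Cdkn1a* had ratios on both sides. The share of all genes with 4 ratios on the same side was not counted. With the block, 39.8% of all genes passed the adjusted p in stimulated cells.

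Whether PGE2 acted differently on a gene with and without beads was tested as an interaction over all 16 samples (PGE2 effect in stimulated minus that in unstimulated cells). None of the 10 genes passed, against 0.749% of 15096 genes by adjusted p and 0.232% with a difference of at least 1 on the log2 scale. By edgeR, 2 of the 10 had an unadjusted p under 0.05, *Cdk4* and *Cdkn1b*, and DESeq2 and limma called 0. The difference was 0.74 for *Cdkn1b* (95% interval 0.11 to 1.37, adjusted p = 0.411, block 0.237) and 0.19 for *Cdk4* (95% interval 0.015 to 0.37, adjusted p = 0.47, block 0.214). For *Cdk6*, a DEG of stimulation with PGE2 and not without, the interval was -0.084 to 0.70 (adjusted p = 0.71). With the block the *Cdk6* interval was 0.022 to 0.61 (adjusted p = 0.280). The same 4 groups enter all comparisons, and each group serves in 2 pairwise ones, so that their fold changes are not independent of each other.

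**Figure D5:**
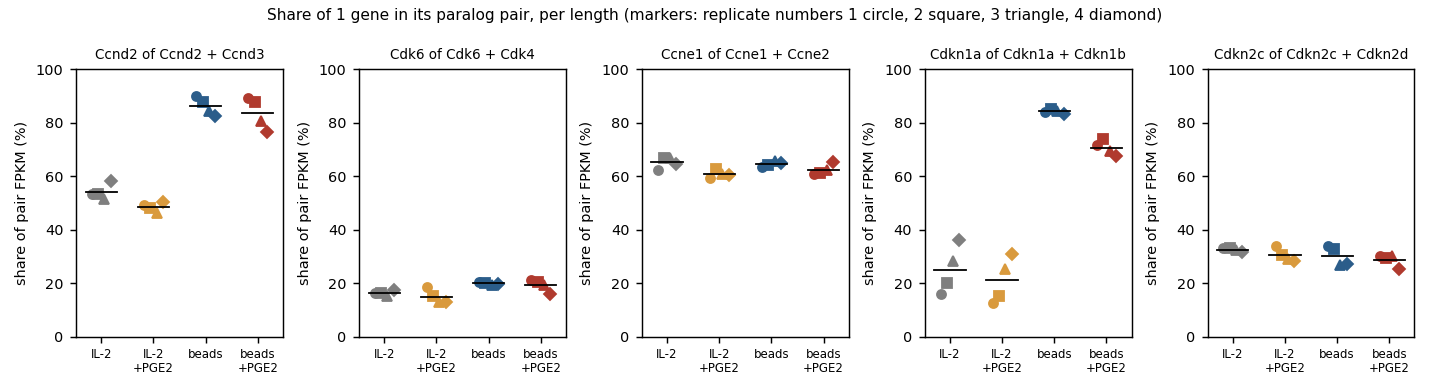
Share of 1 gene in the summed FPKM of its pair (percent, y axis from 0 to 100) in each sample, with the group mean as a line. *Ccnd2* and *Cdkn1a* stood at higher shares of their pairs with beads, and the *Cdkn1a* share with beads and PGE2 lay below that with beads alone.

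Shares within pairs were also read with PGE2. *Ccnd2* took 48.5% ± 1.76 of the D-type cyclin FPKM with PGE2 and no beads, below all unstimulated untreated samples, and 83.6% ± 5.93 with PGE2 and beads, within the range of untreated stimulated samples apart from 2 lower ones. *Cdk6* took 14.9% ± 2.72 and 19.3% ± 2.33 of the kinase pair with PGE2, *Ccne1* 60.8% ± 1.45 and 62.3% ± 1.97 of the E-type cyclins, *Cdkn2c* 30.4% ± 2.41 and 28.7% ± 2.30 of the INK4 pair, and *Cdkn1a* 21.02% ± 8.71 of the Cip/Kip pair without beads.

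Set side by side per length, the summed FPKM of the 4 inhibitors was 3.72 ± 0.302 times that of the 2 D-type cyclins in unstimulated untreated cells (SD, n = 4), 5.70 ± 0.297 times with PGE2, 0.938 ± 0.350 times with beads and 1.57 ± 0.743 times with beads and PGE2. The first 2 groups did not overlap (3.43 to 4.02 and 5.31 to 6.01), whereas the stimulated groups did (0.602 to 1.33 and 0.895 to 2.46). Within replicate numbers 1 to 4, the ratio with PGE2 and beads was 1.49, 1.49, 1.68 and 1.85 times that with beads alone, higher in 4 of 4 numbers, and without beads it was 1.45 to 1.70 times that of untreated cells. Transcript levels say nothing of protein, which for these cyclins and for p27 is also set by degradation.

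Of 33 further genes of the G1 to S pathway, 32 were tested (*Cdkn1c*, a Cip/Kip inhibitor, had at most 14 counts in a sample). Stimulation changed 23 of 32 without PGE2, 11 upward and 12 downward, against 66.5% of all genes. With PGE2 it changed 24 of 32, 12 in each direction, against 64.2% of all, so that both counts lay not far from the share of all genes. *Myc*, a transcription factor that drives growth, had a log2 fold change of 3.099 (SE 0.15, adjusted p = 1.33e-08) without PGE2 and *Cdc25a*, a phosphatase that activates CDK2, of 1.16 (SE 0.085, adjusted p = 1.51e-07). The RB relatives fell, *Rbl2* by 2.04 (SE 0.14, adjusted p = 1.18e-07) and *Rbl1* by 1.06 (SE 0.071, adjusted p = 7.92e-08) on the log2 scale. Of the E2F and DP genes *E2f5* had 1.69 (SE 0.12, adjusted p = 1.15e-07), *Tfdp2* -1.78 (SE 0.16, adjusted p = 9.24e-07) and *E2f2* -1.70 (SE 0.15, adjusted p = 5.59e-07). The repressors *E2f7* (-1.56) and *E2f8* (-1.27) and the mitotic cyclin *Ccnb2* (-1.04) were the other DEGs of the list, all lower. With PGE2, stimulation gave the DEGs *Myc* (3.86), *E2f5* (1.79), *Cdc25a* (1.37) and *Tfdp1* (1.37) upward and *Tfdp2* (-1.64), *Rbl2* (-1.61), *E2f2* (-1.46), *E2f7* (-1.19) and *E2f8* (-1.19) downward.

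PGE2 changed 12 of these 32 genes in unstimulated cells, 10 downward and 2 upward, with no DEG, against 28.4% of all genes (15.5% downward and 12.9% upward). With the block 20 passed, 16 of them downward, against 47.8% of all (24.2% downward). Its effect on *Myc* there without the block was a log2 fold change of -0.97 (SE 0.14, adjusted p = 4.22e-04), and *Tfdp1*, a DP partner of E2F, had -0.73 (SE 0.064, adjusted p = 1.73e-05). *Tfdp2*, also a DP gene, went the other way, with 0.56 (SE 0.090, adjusted p = 8.54e-04). In stimulated cells 3 of 32 passed, all lower, against 9.84% of all genes (3.8% lower and 6.04% higher). By the block fit 20 passed, 13 of them lower, against 39.8% of all (20.7% lower). Among the 3 without the block was the INK4 inhibitor *Cdkn2b*, the single DEG, at -1.14 (SE 0.28, adjusted p = 0.0307) but with at most 32 counts in a sample. Another was the CDK inhibitor gene *Cdkn2a*, at -0.76 (SE 0.17, adjusted p = 0.0198) with at most 208 counts. Both inhibitor genes fell with PGE2, whereas *Cdkn1b* rose. The last of the 3 was *E2f1*, at -0.56 (SE 0.12, adjusted p = 0.0174). The median log2 fold change of the list was -0.16 in unstimulated and -0.11 in stimulated cells. No gene of the list passed the interaction test, with or without the block.

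Cell type markers were read as summed CPM. All 6 markers of CD8+ T cells were present (2454 to 4460 CPM), and *Tcf7*, which encodes TCF1, had a mean of 1175 CPM in unstimulated and 309 in stimulated untreated cells. The 5 B cell markers summed to 4.47 to 21.01 CPM, mostly *Cd79b*, and were lower with beads (4.92 to 11.7 untreated) than without (12.02 to 21.01). Myeloid markers reached 0.507 CPM and erythroid markers 0.821, with *Hbb-bs* at 0 in all samples. The CD4+ T cell list gave 17.996 to 40.6 CPM, with *Cd4* itself at most 1.87. The NK list gave 6.11 to 178 CPM, nearly all from *Eomes*, which CD8+ T cells express too, and *Ncr1* was at 0 throughout. The part of the B cell markers in the results was not tested. In bulk RNA, fewer cells that express a gene and less RNA of it per cell cannot be told apart.

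For the 6 genes that were DEGs of a pairwise comparison, the gene with the most similar pattern was sought among 12252 genes, as the smallest root mean square difference of centred log2 CPM over the 16 samples. It was *Abhd17c* for *Ccnd2* (0.079), *2810004N23Rik* for *Cdk6* (0.11), *Hemk1* for *Cdkn1a* (0.22), *Klhl24* for *Cdkn1b* (0.11), *Nipal3* for *Cdkn2c* (0.092) and *Kif3c* for *Cdkn2d* (0.10). *Klhl24* had group means of 105, 131, 16.6 and 35.6 CPM in unstimulated untreated, unstimulated PGE2, stimulated untreated and stimulated PGE2 cells.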

How the data were processed

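RNA-seq of 16 samples, 4 in each of 4 groups given by the labels, was analysed. The authors prepared poly(A) libraries (NEBNext Ultra), sequenced paired ends on a NovaSeq6000, aligned reads to GRCm38 (mm10) with HISAT2 2.0.5 and counted them per gene with featureCounts 1.5.0-p3 (versions from the submitters' processing notes). The deposited counts are whole numbers without normalization, and the deposited FPKM values were computed by the authors from counts and gene length. The annotation release, strand setting and counting options are not given in the sources used here. The authors tested genes with DESeq2 1.20.0.

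Counts were tested with edgeR 4.0.16 (R 4.3.3) by filterByExpr with a minimum count of 10, TMM, glmQLFit and glmQLFTest, two-sided, with Benjamini-Hochberg adjustment over all genes tested, on the 8 samples compared or all 16 for the interaction, without covariates. DEGs had an adjusted p under 0.05 and a fold change of at least 2, the thresholds of the study. CPM used TMM factors of all 16 samples (0.880 to 1.09), apart from the CPM given beside exon overlaps, which used library totals only. Counting error is small at these depths beside the spread between replicates, whose chi-square per degree of freedom was 8.46 to 56.8, so no library was a copy of another. Levels of the 10 genes were compared with each other as FPKM only. The script was tested on simulated data.

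Same-numbered samples were checked for pairing by the correlation of their deviations from group means. Every pair was above 0.1 for PGE2 in unstimulated cells (0.137 to 0.444), PGE2 in stimulated cells (0.190 to 0.423) and stimulation without PGE2 (0.112 to 0.359), but not for stimulation with PGE2 (0.0439 to 0.281). The labels do not say what a number shares.

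The 10 genes, the pathway and marker lists and the tests were chosen with earlier results of these data known. All 10 genes are named, and of the pathway list those that were DEGs in a pairwise comparison or not tested, and *Cdkn2a* and *E2f1*. Each DEG of the 10 has its nearest gene, of at least 1 CPM, by log2 CPM with a prior count of 2. Alternatives were RLE and upper-quartile factors, DESeq2 1.42.0, no filter, a minimum of 10 counts in all samples compared, limma 3.58.1 with pseudocounts of 1 and 0.1 on log2 FPKM (genes whose FPKM averaged 1 or more, and with a pseudocount of 1 also every gene), the replicate block, no fold change threshold, 1 fit of 16 samples, and leaving out each replicate. Exon overlaps came from GENCODE M21, in which 54409 of 54532 gene identifiers were found, and promoters from RefSeq.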

Additional observations from a re-analysis of the deposited data

How the results depend on the processing

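For stimulation, the calls by adjusted p of all 10 genes and their directions held under every alternative run, with and without PGE2. Of 970 values of single genes under alternatives, 886 kept direction and side of the threshold, 35 lost the call, 15 gained it and 34 changed sign, the last all for differences that passed no test. With the replicate block, DEGs among the 10 genes stayed at 0, 1, 5, 6 and 0 (PGE2 in unstimulated cells, PGE2 in stimulated cells, stimulation without PGE2, stimulation with PGE2, interaction), and over all genes they numbered 560, 349, 3317, 3234 and 60, against 490, 243, 3301, 3210 and 35 without it. The block changed the call by adjusted p of *Cdkn2c* for PGE2 in unstimulated cells and of 7 genes for PGE2 in stimulated cells, and of no other among the 10. Over all 24 same-numbered pairs, 21 correlations were above 0.1, and 14 of 16 samples correlated best with their own number.

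With no fold threshold, 8, 2, 10 and 10 of the 10 genes were called in the pairwise comparisons in that order, and 4122, 1370, 9440 and 9309 of all genes, with 113 for the interaction. On log2(FPKM + 1) by limma, all-gene DEGs numbered 116, 62, 1605 and 1583 and 8 for the interaction. Without the FPKM filter they were 113, 49, 1612, 1604 and 6, and on log2(FPKM + 0.1) 237 and 110 for PGE2 and 17 for the interaction. *Cdkn1b* fell just short of 2-fold on log2(FPKM + 1), with 0 of the 10 genes then DEGs for PGE2 in stimulated cells, with or without the filter. Without the filter *Cdkn1b* (adjusted p = 0.114) and *Cdk4* (adjusted p = 0.0628) also missed the adjusted p by limma there. For PGE2 in unstimulated cells, limma with the filter lost the call of *Cdkn1b* with pseudocounts of 1 (adjusted p = 0.0565) and 0.1 (0.0570). Without the filter the calls of *Cdkn1b* (0.141), *Ccne2* (0.0858) and *Cdkn2d* (0.0750) were lost in those cells. The log2(FPKM + 1) scale shrinks the changes of low genes by its construction. It called 36 genes higher and 80 lower for PGE2 in unstimulated cells and 1032 higher and 573 lower for stimulation without PGE2, against 211 and 279 and 1640 and 1661 by edgeR. DESeq2 called 53 interaction genes. Other causes were not tested.

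When single replicates were left out, DEGs among the 10 genes ranged from 0 to 0, 0 to 1, 5 to 5, 6 to 6 and 0 to 0, and over all genes from 448 to 556, 166 to 359, 3188 to 3658, 2950 to 3631 and 18 to 72. Interaction DEGs over all genes fell to 18 to 23 without unstimulated untreated replicates 1 or 2, unstimulated PGE2 replicate 3, stimulated untreated replicates 1 or 3 or stimulated PGE2 replicate 2, and were 72 without stimulated PGE2 replicate 4. Signs changed for *Cdkn1a* with PGE2 in unstimulated (-0.27 to 0.24) and stimulated cells (-0.22 to 0.029), and in the interaction for *Ccnd3* (-0.091 to 0.094), *Ccne2* (-0.024 to 0.12), *Cdkn1a* (-0.34 to 0.16) and *Ccnd2* (-0.029 to 0.22). The *Ccnd3* interaction was also below 0 with RLE (-0.013), upper-quartile factors (-0.0093), DESeq2 (-0.013), no filter (-0.031) and limma (-0.016, -0.022 and -0.016), and that of *Ccne2* with no filter (-0.0058).

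As counts per kilobase on the TMM scale, 36 of 40 group levels stayed within 1 SD of the FPKM, and the other 4 were *Ccnd3* (25.6 and 21.6 unstimulated, untreated and with PGE2), *Cdk4* (80.2, unstimulated untreated) and *Cdkn2d* (75.2, unstimulated with PGE2).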

Other observations

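The size of the response to beads differed between replicate numbers. Taken within numbers, the log2 response to stimulation without PGE2 was smallest in replicate number 4 for 10 of the 10 genes and largest in number 1 for 9 of them. Of all 3301 DEGs of that comparison, 70.7% had their smallest response in number 4 and 58.0% their largest in number 1. With PGE2 the response was smallest in number 4 for 9 of the 10 genes and 76.7% of 3210 DEGs, and largest in number 1 for 7 genes and 56.6% of DEGs. Some of the 10 genes were not DEGs, and the shares over all genes tested were not counted. For *Cdkn1b* the log2 ratio of stimulated to unstimulated untreated samples was -3.18, -2.96, -2.34 and -1.997 in numbers 1 to 4, and with PGE2 -2.63, -2.36, -1.42 and -1.15. For *Ccnd2* it was 2.20, 2.00, 1.90 and 1.43 without PGE2, and 2.30, 2.29, 1.85 and 1.38 with it. The labels do not say what samples of a number share, and the source of the difference was not tested.

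*Cdkn1a* differed between numbers in level and less in response: the unstimulated untreated samples spanned 64.3 to 149.6 CPM, while the within-number log2 ratio of stimulated to unstimulated samples was 1.16 to 1.61 without PGE2 and 1.07 to 1.63 with it.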
